A study of Mus musculus with 24 samples.

Results

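The growth of the DNMT1 knockout effect in mouse liver between weeks 4 and 8 was measured on 16 of the 24 arrays of the series. These were the arrays of both genotypes at those ages, 4 in each of the 4 groups. For each gene the knockout effect was the knockout minus control difference at one age, and its growth was the effect at week 8 minus the effect at week 4. Transcripts of whole liver were read on an Illumina expression array, and signals are given as log2(intensity + 16), on which a gene without signal reads 4.0.

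The control groups are labelled only as control at week 4 and at week 8, and the knockout groups as DNMT1 knockout at the same weeks. The labels give neither the promoter or cell type that drives the deletion nor the strain, the sex or any treatment. Each age was read on its own arrays, so a change with age is a difference between groups. Nothing in the labels says that the 4 arrays of a group are separate animals, so a p-value here speaks of array-to-array spread, which may be technical. Differences are given ± SE, with adjusted p-values from limma over all 10733 genes tested and a threshold of 0.05.

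DNMT1 is the maintenance methyltransferase that copies methylation onto the new DNA strand when a cell divides. Around and after weaning the growth of the mouse liver slows, more of its hepatocytes leave the cell cycle, and fetal transcripts still present are silenced. Pulsatile growth hormone acting through STAT5 sets up the male pattern of steroid, drug and pheromone-carrier genes. A knockout effect can therefore grow because the control moves and the knockout stays, because the knockout moves and the control stays, or because both move apart.

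Between 12182 and 12268 of the 25697 probes were above background on each array. The transcript of Dnmt1 itself read 7.07, 6.49, 7.05 and 6.45 on the control arrays of week 4 and 6.91, 6.70, 6.87 and 6.88 on those of week 8. On the knockout arrays it read 6.36, 6.69, 6.09 and 6.92 at week 4 and 6.69, 6.43, 6.51 and 6.52 at week 8, and the growth was -0.05 ± 0.27 (adjusted p = 0.939). The groups of week 4 overlapped and those of week 8 did not, but the sources do not say whether this probe sits inside the deleted sequence, and the level is no test of the deletion. Knockout week 8 replicate 4 was low for transcripts of the Y chromosome, with Eif2s3y at 4.0 against 9.13 to 9.27 on the other arrays of its group and Ddx3y at 7.41 against 10.71 to 11.26, and without it 605 growths were called higher and 389 lower, against 598 and 361 with it. Control week 4 replicate 4 was low for several male liver genes. Knockout week 4 replicate 4 lay nearer to the controls than the rest of its group on the first principal component, at 18.7 against 30.9 to 36.6, and without it 446 and 254 growths were called.

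The knockout effect grew or changed in 959 genes, 8.94% of those tested, with the effect higher at week 8 in 598 (5.57%) and lower in 361 (3.36%). At week 4 the knockout was higher than control for 1587 genes (14.8%) and lower for 1331 (12.4%). At week 8 it was higher for 2670 (24.9%) and lower for 2577 (24%). Of the genes higher in the knockout at week 4, 83.7% were also higher at week 8, which is 49.8% of the week 8 genes. For the lower genes the shared 1068 were 80.2% of the week 4 genes and 41.4% of the week 8 genes. Among the 959 genes, the effect was called only at week 8 in 505, and it was called at both ages in 1 direction and larger at week 8 in 337. It turned sign in 35 genes and shrank or was lost in 75, and in the other 7 it was called at neither age.

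**Figure D1:**
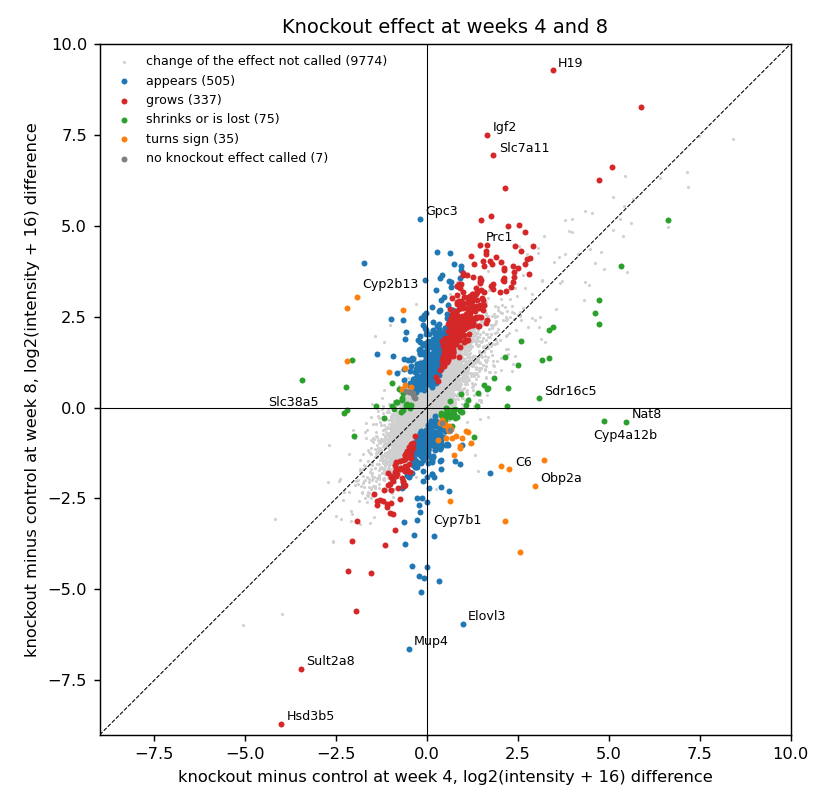
Each point is 1 of the 10733 genes, with the knockout minus control difference at week 4 across and at week 8 upward, both as log2(intensity + 16) differences. Colours give the 505 effects that appeared, the 337 that grew, the 35 that turned sign and the 75 that shrank or were lost, and the dashed line marks equal effects. H19 lies highest, Hsd3b5 lowest, and Nat8 and Cyp4a12b lie far to the right with effects of -0.39 and -0.38 at week 8.

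The growth could be divided by which genotype changed with age. In control liver 342 genes rose from week 4 to week 8 (3.19%) and 514 fell (4.79%). In knockout liver 534 rose (4.98%) and 431 fell (4.02%). Of the 342 genes that rose in control, 40 also rose in the knockout, which is 11.7% of the control genes and 7.49% of the knockout genes, and 33 fell in the knockout. Of the 514 that fell in control, 36 also fell in the knockout, 7% and 8.35% of the 2 lists. Among the 959 genes with a changed effect, 331 changed with age in control alone and 383 in the knockout alone. In 66 both genotypes changed in opposite directions, in 11 both changed in 1 direction by unequal amounts, and in 168 neither change passed the threshold by itself. The number of control changes fell from 856 to 570 without control week 4 replicate 4, and that of knockout changes from 965 to 585 without knockout week 4 replicate 4. The median share of the growth that came from the control groups was 0.49 for the effects that became higher and 0.48 for those that became lower.

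**Figure D2:**
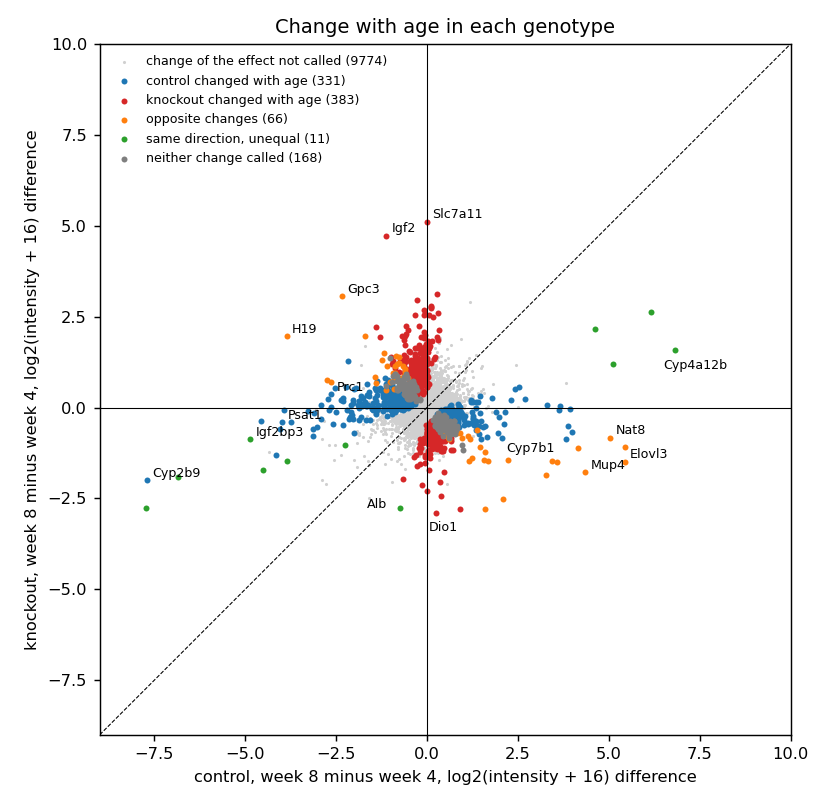
Each point is a gene, with the control difference between week 8 and week 4 across and the knockout difference upward, as log2(intensity + 16) differences. Colours separate the 331 genes that changed in control alone, the 383 that changed in the knockout alone, the 66 opposite, the 11 unequal and the 168 in which neither change was called. The blue points lie along the horizontal axis and the red ones along the vertical axis.

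The genes that matured in control liver were mostly not called for a change with age in the knockout. Over the 118 genes that rose by at least 1 on the log2 scale in control, the median change was 1.42 in control and -0.01 in the knockout, where 14 rose, 20 fell and 84 were not called. Over the 217 genes that fell by as much, the medians were -1.51 and -0.03, and in the knockout 12 rose, 15 fell and 190 were not called. Over all genes tested 4.98% rose and 4.02% fell in the knockout, and the counts in both sets were above these shares. The effect changed in 73 of the first and 134 of the second, a count that the choice of genes by their control change largely fixes. Each array was also placed on the control course, with 0 at the mean of control week 4 and 1 at that of control week 8. For the genes that rose in control, the knockout arrays lay at 0.11 to 0.28 at week 4 and at 0.10 to 0.24 at week 8. For those that fell, they lay at -0.32 to -0.15 at week 4 and at -0.38 to -0.12 at week 8. The knockout arrays of the 2 ages overlapped in both sets.

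**Figure D3:**
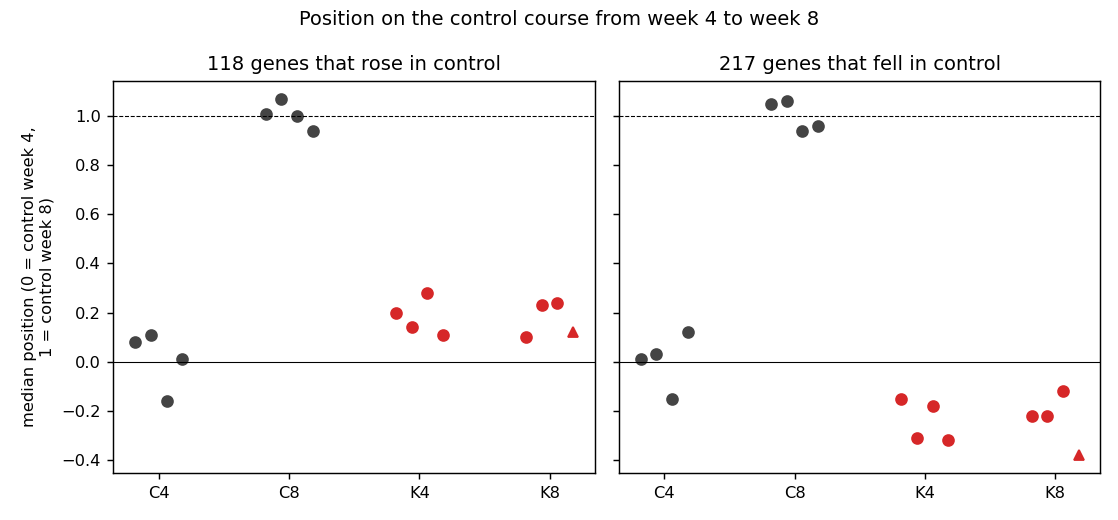
Median position of each array over the 118 genes that rose and the 217 that fell in control, with 0 the control mean of week 4 and 1 that of week 8 (C control, K knockout, 4 arrays a group, the triangle marks knockout week 8 replicate 4). The control arrays lie near 0 and 1 because they defined the scale, and the knockout arrays stay between -0.38 and 0.28 at both ages.

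Cell division genes fell in control and not in the knockout. Of 23 measured genes of mitosis and G2/M, 18 fell and none rose in control, with a median change of -1.71, while none was called in the knockout, with a median of 0.02. The effect became higher in 14 of the 23 and lower in none, with a median growth of 1.77 against -0.01 over all genes. The median was 0.97 at log2(intensity + 50) and 3.23 after renewed quantile normalization. For 13 of the 14 the control alone changed with age. Without knockout week 8 replicate 4, 12 growths were called higher in place of 14.

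Prc1, which bundles microtubules of the central spindle, read 8.82, 8.39, 8.45 and 7.29 in control at week 4 and 5.12, 5.95, 5.73 and 5.58 at week 8. The knockout arrays read 9.23, 10.15, 9.76 and 9.67 at week 4 and 9.64, 10.10, 9.87 and 10.65 at week 8. Every control array of week 8 was below every control array of week 4, the knockout groups of the 2 ages overlapped, and both lay above the controls. Its effect went from 1.47 to 4.47, a growth of 3.0 ± 0.42 (adjusted p = 3.62e-05). Ccnb1, the cyclin of mitotic entry, was above background on all 4 control arrays at week 4 and on none at week 8, a fall of at least 6.38-fold. On the knockout arrays Ccnb1 read 7.48 to 8.33 at week 4 and 7.48 to 8.41 at week 8, the latter at least 13.3-fold over control. Cdk1, its kinase partner, Birc5, a subunit of the chromosomal passenger complex, and the mitotic kinase gene Pbk grew by 2.79 ± 0.45, 2.66 ± 0.42 and 2.96 ± 0.51, with control falls of 2.22 to 2.71 and knockout changes of 0.02 to 0.56.

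In DNA replication and G1/S, 12 of 30 measured genes fell and 1 rose in control and none was called in the knockout, with medians of -0.51 and 0.09. The effect became higher in 7 and lower in 1, with a median growth of 0.80, or 0.51 at log2(intensity + 50). Mcm6, a subunit of the replicative helicase, read 7.97 to 8.76 in control at week 4, 5.38 to 6.31 at week 8, and 7.48 to 8.92 and 8.23 to 8.99 in the knockout. Its level did not differ between genotypes at week 4 past the threshold (-0.07, adjusted p = 0.889), and the growth was 2.57 ± 0.41 (adjusted p = 0.000175). Mcm5, another helicase subunit, grew by 1.86 ± 0.36. Ccnd1, the cyclin D1 gene of G1 entry, fell by 1.65 in control, changed by 0.66 in the knockout (adjusted p = 0.072) and grew by 2.31 ± 0.33. Uhrf1, which recruits DNMT1 to newly replicated DNA, grew by 2.04 ± 0.53 (adjusted p = 0.0162), a call lost on the square root scale, after renewed quantile normalization and with a replicate block. Mcm10, a replication initiation factor, was the exception: it rose by 1.66 in control, changed by -0.82 in the knockout (adjusted p = 0.0526) and had a growth of -2.48 ± 0.38, and its other probe gave -2.72.

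Promoters of these genes are shown because the set moved together in control. The sequences are RefSeq's 250 bases before the gene start on build GRCm38.p6, 5′ to 3′ along the gene. Capitals mark the cell cycle homology region (TTTGAA) and the CCAAT box (CCAAT) on either strand, which nowhere overlap in these windows.
Prc1: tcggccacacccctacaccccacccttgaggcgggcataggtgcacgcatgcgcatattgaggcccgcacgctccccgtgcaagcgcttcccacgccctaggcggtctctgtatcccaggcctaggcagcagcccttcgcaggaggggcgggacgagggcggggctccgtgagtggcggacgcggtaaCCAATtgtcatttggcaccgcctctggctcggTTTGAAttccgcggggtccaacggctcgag
Cdk1: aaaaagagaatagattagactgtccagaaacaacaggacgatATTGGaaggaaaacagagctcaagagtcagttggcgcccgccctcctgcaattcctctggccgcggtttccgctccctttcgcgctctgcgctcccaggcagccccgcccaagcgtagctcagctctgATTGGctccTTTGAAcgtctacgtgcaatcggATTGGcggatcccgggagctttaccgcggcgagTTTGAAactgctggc
Ccnb1: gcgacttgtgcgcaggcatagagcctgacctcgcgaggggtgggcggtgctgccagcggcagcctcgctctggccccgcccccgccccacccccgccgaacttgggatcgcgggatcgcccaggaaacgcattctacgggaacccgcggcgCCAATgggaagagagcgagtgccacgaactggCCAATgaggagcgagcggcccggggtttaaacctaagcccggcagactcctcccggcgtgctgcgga
The Prc1 window lies at chr7:80294226-80294475 on the plus strand, that of Cdk1 at chr10:69352913-69353162 and that of Ccnb1 at chr13:100786487-100786736, both on the minus strand. Prc1 holds 1 TTTGAA and 1 CCAAT, Cdk1 holds 2 and 3, and Ccnb1 holds 2 CCAAT and no TTTGAA. The table gives Prc1 a second start, whose window at chr7:80294201-80294450 holds 1 CCAAT and no TTTGAA, and the Birc5 window at chr11:117848987-117849236 on the plus strand holds neither motif. Of the 23 measured mitosis genes 18 matched the promoter table. TTTGAA stood in 7 of the 18 (38.9%) and CCAAT in 14 (77.8%), against 18.3% and 37.5% of the 27025 genes in the table. These matches are a description of letters, not of binding.

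In bulk liver, more cells of a type and more RNA per cell cannot be told apart. Marker sums of other cell types also changed with age. Over 30 stellate cell and matrix genes the sum was 17200 to 23200 in week 4 control and 11800 to 12600 at week 8. In the knockout it was 26100 to 31500 and then 35900 to 41400, a rise, while no mitosis gene was called there. The part of these cell types in the cell division result was not tested.

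Stress and amino acid genes fell in control as well. Of 22 measured ATF4, serine and asparagine genes, 11 fell and none rose in control (median -0.50), against 1 risen and 3 fallen in the knockout (median 0.04). The effect became higher in 5 and lower in none, with a median growth of 0.50, or 0.27 at log2(intensity + 50). Psat1, an enzyme of serine synthesis, read 9.30, 9.65, 7.19 and 8.33 in control at week 4 and 5.08, 4.21, 4.70 and 4.58 at week 8. Knockout liver read 8.84, 8.64, 7.95 and 8.85 at week 4 and 8.73, 7.49, 9.01 and 7.39 at week 8. The genotypes overlapped at week 4 and separated at week 8, where control was lower, and the growth was 3.56 ± 0.59 (adjusted p = 0.000303). Nupr1, a small stress-induced chromatin protein, grew by 2.97 ± 0.47 with a control fall of 2.91. Vldlr, the very low density lipoprotein receptor, grew by 2.47 ± 0.60 (adjusted p = 0.0102), a call lost after renewed quantile normalization and with a replicate block. Outside the lists, Id1, an inhibitor of differentiation factors, read 8.35 to 9.90 in control at week 4 and 5.59 to 7.17 at week 8. The knockout read 7.26 to 8.79 and 8.48 to 8.88, and the growth was 3.06 ± 0.52.

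Fetal liver genes followed different routes. Of 16 measured, 7 fell and 1 rose in control, while 4 rose and 1 fell in the knockout, and the effect became higher in 7 with a median growth of 1.49, which was 0.81 with no filter on dim probes and 3.36 after renewed quantile normalization. Of the 8 called growths 3 came from control alone, 2 from the knockout alone, 2 from opposite changes and 1 from unequal ones. The single gene that became lower was Zhx2, a repressor of Afp and H19 in mouse liver, at -0.91. That call was lost (adjusted p = 0.0656) without knockout week 8 replicate 4.

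Igf2bp3, a fetal RNA-binding protein, read 8.97, 9.42, 9.35 and 9.12 in control at week 4 and was above background on no control array at week 8, a fall of at least 35.3-fold. Its knockout signal was 9.41, 9.49, 9.64 and 9.48 at week 4 and 9.08, 8.50, 8.50 and 8.48 at week 8. Control lost the transcript between the ages, and the knockout fell by 0.87 (adjusted p = 0.00225). The growth was 3.99 ± 0.25 (adjusted p = 8.04e-11). Spink1, a trypsin inhibitor, fell by 3.94 in control and was not called in the knockout, with a change of -0.06, a growth of 3.88 ± 0.81 that was not called on the square root scale.

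H19, the imprinted noncoding RNA, read 7.65, 7.36, 9.70 and 6.95 in control at week 4 and was at background on all control arrays of week 8. On the knockout arrays it read 11.76, 11.40, 11.07 and 11.27 at week 4 and 12.83, 13.42, 12.98 and 14.11 at week 8, at least 632-fold over control. The 2 genotypes moved apart, and no array of 1 genotype reached the other at either age. The growth was 5.82 ± 0.56 (adjusted p = 1.24e-07). Gpc3, a heparan sulfate proteoglycan of fetal liver, also moved both ways: control fell to background, at least 7.58-fold, and the knockout rose by 3.06, from 6.56 to 7.26 at week 4 to between 9.53 and 10.42 at week 8. The genotypes overlapped at week 4, and the growth was 5.40 ± 0.55 (adjusted p = 3.41e-07).

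Igf2, the fetal growth factor of the same imprinted region as H19, changed in the knockout. It read 5.50, 5.98, 6.89 and 6.43 in control at week 4, 5.76, 4.37, 5.39 and 4.77 at week 8, 8.49, 7.39, 7.87 and 7.65 in the knockout at week 4, and 12.09, 12.48, 11.13 and 14.59 at week 8. The highest value was that of knockout week 8 replicate 4, and every knockout array of week 8 was above every array of week 4. The knockout rose by 4.73 and control changed by -1.13 (adjusted p = 0.146). The growth was 5.85 ± 0.65 (adjusted p = 1.56e-06), and 5.18 without that array. Afp, the fetal serum protein, was above background on no control array, on 3 knockout arrays of week 4 and on all 4 of week 8, where it read 6.85 to 8.24, at least 9.95-fold over control. Its growth was 2.86 ± 0.44. Among the 16 measured imprinted genes the effect became higher in 6, H19 and Igf2 included, and lower in none, with a median growth of 0.50, or 0.13 with no filter on dim probes. Grb10, a growth-restraining adaptor, turned from -0.60 at week 4 to 1.10 at week 8, since control fell by 1.43.

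**Figure D4:**
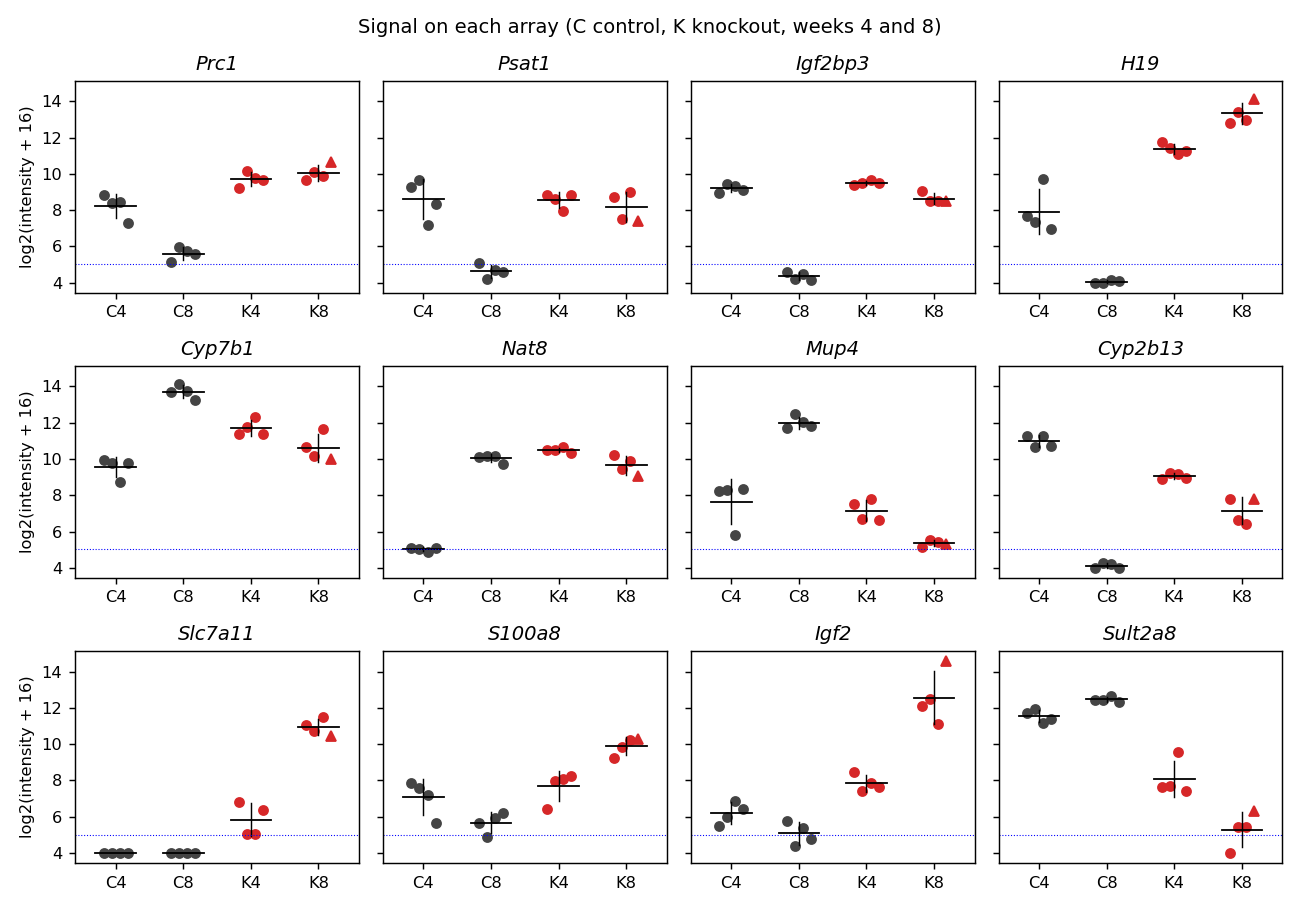
Signal of 12 genes as log2(intensity + 16) on each array (C control, K knockout, number the week), with the mean and SD of the 4 arrays; triangles mark knockout week 8 replicate 4 and the dotted line the background threshold. Prc1, Psat1 and Igf2bp3 fell in control alone or mostly there, H19 moved apart in both, Nat8 and Cyp7b1 were already raised in the knockout at week 4, and Slc7a11, Igf2 and Sult2a8 changed in the knockout.

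Genes of the adult male liver rose in control and mostly did not in the knockout. Of 20 measured mature male liver genes, 16 rose and none fell in control (median 1.92), while 2 rose and 4 fell in the knockout (median -0.30). The effect became lower in 14 and higher in none, with a median growth of -2.45. Without knockout week 8 replicate 4 the count was again 14, with a median of -2.59.

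At week 4, 6 of the 20 mature male liver genes were already higher in the knockout than in control, and 5 were already lower. Genes of the higher kind are given first. Cyp7b1, an oxysterol hydroxylase of the bile acid pathway, read 9.94, 9.79, 8.73 and 9.77 in control at week 4 and 13.70, 14.16, 13.74 and 13.27 at week 8. The knockout arrays read 11.39, 11.74, 12.34 and 11.38 at week 4 and 10.65, 10.15, 11.65 and 9.99 at week 8. The knockout lay above every control array at week 4 and below every control array at week 8, so the effect turned from 2.16 to -3.11. The growth was -5.27 ± 0.50 (adjusted p = 1.06e-07), with a control rise of 4.16 and a knockout fall of 1.11. C6, a complement protein of the membrane attack complex, turned from 2.27 to -1.70, with a knockout change of -0.03 (adjusted p = 0.959). Serpina12, the adipokine vaspin, turned from 3.22 to -1.43, and from 1.51 to -0.82 on its second probe. Outside the list, Sucnr1, the succinate receptor, turned from 2.05 to -1.62. Obp2a, also outside it, is an odorant-binding lipocalin that was at background on every control array at week 4 and read 6.48 to 7.81 in the knockout, at least 6.67-fold higher. At week 8 it read 6.89 to 7.66 in control and 4.41 to 5.82 in the knockout. All 26 genes that turned to lower had been higher in the knockout at week 4 by the rule that groups them.

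Nat8, an N-acetyltransferase, read 5.08, 5.03, 4.85 and 5.10 in control at week 4 and 10.13, 10.18, 10.16 and 9.74 at week 8. Knockout liver read 10.51, 10.48, 10.65 and 10.34 at week 4 and 10.24, 9.46, 9.89 and 9.05 at week 8. The knockout arrays of week 4 were above even the control arrays of week 8. The effect went from 5.48 to -0.39 (adjusted p = 0.155), a growth of -5.87 ± 0.32 (adjusted p = 6.40e-12). Cyp4a12b, a fatty acid hydroxylase whose probe may share sequence with its close paralogs, rose by 6.81 in control and by 1.57 in the knockout, and its effect went from 4.86 to -0.38. Sdr16c5, a retinol dehydrogenase outside the list, rose in neither: it was at background on every control array of week 4, read 6.83 to 7.26 in the knockout then, at least 7.29-fold higher, and fell by 2.44 in the knockout. Cyp7a1, the rate-limiting enzyme of bile acid synthesis, had an effect of 2.21 at week 4 and 0.04 at week 8. Its growth of -2.17 ± 0.68 (adjusted p = 0.0447) was lost in 16 of the 28 other settings.

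Other genes rose in control from a level at which the genotypes were not called different. Elovl3, a fatty acid elongase, was above background on 1 control array of week 4 and read 10.33, 10.58, 10.12 and 9.63 at week 8. Its knockout signal was 5.43, 5.72, 6.87 and 4.79 at week 4 and was at background on all arrays of week 8, at least 69.3-fold below control. The growth was -6.93 ± 0.58 (adjusted p = 2.01e-08). Susd4, a complement regulator, and Dct, dopachrome tautomerase, rose by 3.64 and 3.89 in control and changed by -0.08 and -0.52 in the knockout. Hsd3b5, a male steroid dehydrogenase already lower in the knockout at week 4, read 10.76, 11.10, 7.84 and 9.13 in control at week 4 and 13.29 to 13.71 at week 8. On the knockout arrays it read 4.18, 5.11, 8.57 and 4.98 at week 4 and 4.00 to 5.59 at week 8. At week 4 replicate 4 was the lowest of the control arrays and the highest of the knockout arrays. The growth was -4.70 ± 0.94 (adjusted p = 0.0018), and -3.75 without knockout week 4 replicate 4.

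The major urinary proteins, pheromone carriers that the male liver secretes, moved apart in both genotypes. Of 6 measured, 4 rose in control and 5 fell in the knockout, and the effect became lower in 5, with a median growth of -4.51. These genes are near-identical copies, so a probe may read several of them. Mup4 read 8.22, 8.28, 5.80 and 8.32 in control at week 4 and 11.72, 12.47, 12.02 and 11.81 at week 8. The knockout arrays read 7.50, 6.67, 7.78 and 6.66 at week 4 and 5.14, 5.56, 5.45 and 5.33 at week 8. The genotypes overlapped at week 4 through control replicate 4, and did not at week 8. The growth was -6.13 ± 0.59 (adjusted p = 1.39e-07), and -5.51 without that array. Mup2, Mup5 and Mup6 had growths of -4.40 ± 0.58, -4.91 ± 0.57 and -4.62 ± 0.71, with knockout falls of 2.79, 1.47 and 2.52.

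Genes of juvenile and female liver ran the other way. Of 13 measured, 9 fell and none rose in control (median -3.28), and 3 fell in the knockout (median -0.86). The effect became higher in 6 and lower in none, with a median growth of 2.80, or 0.85 with no filter on dim probes. Cyp2b13, a P450 whose probe may also read its close paralog Cyp2b9, read 11.27, 10.64, 11.26 and 10.73 in control at week 4 and was at background on all arrays at week 8, a fall of at least 122-fold. Knockout liver read 8.88, 9.25, 9.16 and 8.93 at week 4 and 7.77, 6.62, 6.39 and 7.82 at week 8. The knockout lay below control at week 4 and above it at week 8, turning from -1.92 to 3.03, a growth of 4.95 ± 0.56 (adjusted p = 2.04e-06). Cyp2b9 fell by at least 282-fold in control and read 7.55, 7.90, 7.24 and 11.09 in the knockout at week 8, highest in replicate 4, the array low in Y transcripts. Its growth was 5.71 ± 1.22 (adjusted p = 0.00337), and 4.83 without that array. Abcd2, a peroxisomal transporter, turned from -2.19 to 1.27, a growth not called after renewed quantile normalization. Outside the list, Gadd45b, a stress-induced protein linked to DNA demethylation, turned from -0.66 to 2.67. Igfbp3, which carries insulin-like growth factors and is induced by growth hormone, turned from -1.04 to 0.98. Slc38a5, an amino acid transporter, was seen above background on the control arrays of week 4 alone, so its effect of -2.28 at week 4 was lost at week 8. Among the 13 measured genes of the growth hormone and STAT5 axis 1 growth was called higher and none lower, with a median of -0.10. Their knockout level was lower in 3 and higher in none at week 4, and lower in 5 and higher in 2 at week 8. TTCNNNGAA, the STAT5 motif read on both strands, was in none of the 14 male liver promoters matched and in 8.13% of all.

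**Figure D5:**
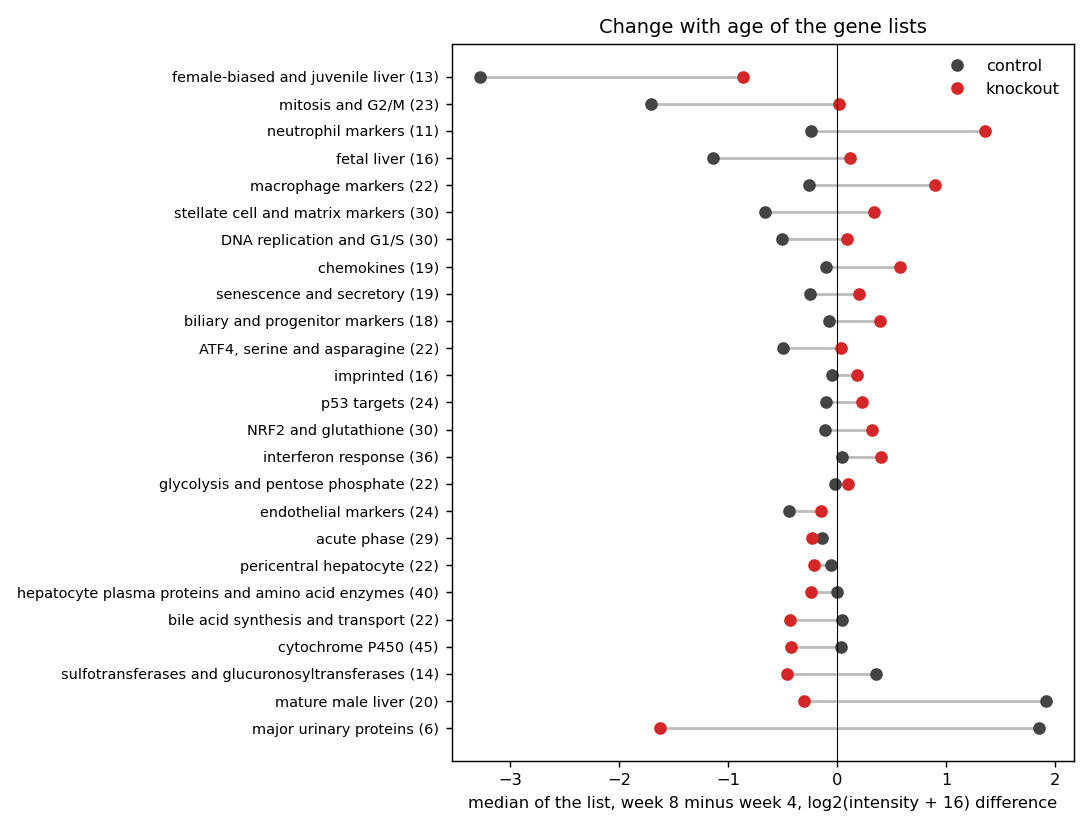
Median change from week 4 to week 8 of each gene list with at least 3 called growths, as a log2(intensity + 16) difference in control (dark grey) and knockout (red), with the number of measured genes in brackets. Control moved for the male, female, mitosis and fetal lists, and the knockout moved for neutrophil and macrophage markers and chemokines.

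Some redox and sugar genes rose in the knockout with age, and most members of both lists were not called. Of 30 measured NRF2 and glutathione genes, 8 rose and 1 fell in the knockout, and the effect became higher in 9 and lower in 2, with a median growth of 0.43, or 0.25 over the mean of a gene's probes. The 2 lower ones, named after their values were seen, were the glutathione transferases Gstm3 at -1.24 and Gstp1 at -1.06. Slc7a11, the cystine transporter, was at the floor of 4.0 on all 8 control arrays. Its knockout signal was 6.83, 5.07, 5.07 and 6.35 at week 4 and 11.08, 10.71, 11.52 and 10.46 at week 8. No knockout array was as low as a control array, and the transcript was at least 2.30-fold higher at week 4 and at least 120-fold higher at week 8. The growth was 5.11 ± 0.41 (adjusted p = 7.93e-09). Pgd and Tkt, enzymes of the pentose phosphate pathway, grew by 1.28 ± 0.27 and 0.65 ± 0.16, and the second probe of Tkt gave 1.29 (adjusted p = 0.0757). Akr1b8, an aldo-keto reductase, grew by 1.63 ± 0.36. Nqo1, a quinone reductase, grew by 2.09 ± 0.41, but here control fell by 1.36 and the knockout change of 0.73 was not called (adjusted p = 0.126). The antioxidant response element TGACNNNGC, on both strands, was in 5 of 26 matched promoters of the list, in 1 of the 11 with a called growth (9.09%) and in 11.5% of all.

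Of 22 glycolysis and pentose phosphate genes, 6 rose in the knockout and none in control, and the effect became higher in 6 and lower in none, though the list's median growth was 0.15, and 0.05 without knockout week 4 replicate 1. Pkm, pyruvate kinase of muscle and growing cells, grew by 1.15 ± 0.27 with a knockout rise of 0.90. Among single genes, Mogat2, a monoacylglycerol acyltransferase, was above background on no control array and on 1 knockout array of week 4, and read 7.54 to 7.98 in the knockout at week 8, at least 12.4-fold over control. Its growth was 3.25 on that probe and 1.45 on a second. Slc1a4, a neutral amino acid transporter, and Cd63, a lysosomal tetraspanin, moved apart: Slc1a4 fell by 1.69 in control and rose by 1.98 in the knockout, and Cd63 fell by 2.75 and rose by 0.77. The growth of Cd63 was 3.52, and 2.69 and 2.25 on its other probes. On those probes control changed by -2.27 and -1.98 and the knockout by 0.43 and 0.27.

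Macrophage and neutrophil markers rose in the knockout with age in 13 of 22 and 7 of 11 genes. Of 22 measured macrophage markers, 13 rose and 2 fell in the knockout and 1 fell in control, and the effect became higher in 9, all by the knockout route. The summed intensity of the 22 markers was 13700 to 17400 in control at week 4 and 11200 to 13700 at week 8. In the knockout it was 27200 to 38800 and 39300 to 73600, with no marker at background on all arrays of either group. Trem2, a receptor of lipid-laden macrophages, read 5.10, 4.00, 4.00 and 5.27 in control at week 4, with 2 arrays above background, was at background on all control arrays at week 8, and read 6.08, 6.30, 5.66 and 6.55, then 8.48, 8.11, 8.67 and 8.25 in the knockout. Every knockout array of week 8 was above every other array, and the growth was 2.46 ± 0.46 (adjusted p = 0.00108), not called after renewed quantile normalization. The complement subunit C1qa, lysozyme Lyz1 and the surface antigen Ly6c1 grew by 1.45 ± 0.28, 1.29 ± 0.32 and 2.65 ± 0.42. Ms4a7, another macrophage membrane gene, grew by 2.80 ± 0.39, and by 1.39 (adjusted p = 0.0228) on its second probe.

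Neutrophil markers were higher in the knockout at week 8, in 10 of 11. At week 4 none was called higher and 1 was called lower. Of the 11, 8 growths were called higher and none lower (median growth 1.54, or 0.85 at log2(intensity + 50) and 3.15 after renewed quantile normalization), and 7 rose in the knockout. Of the 11 markers, 5 were at background on all control arrays at each age, 3 on the knockout arrays of week 4 and 0 on those of week 8. Markers at background in control passed the filter on dim probes through other arrays, such as the knockout ones. The counts called higher may therefore be partly fixed by that filter. The summed intensity was 61.2 to 167 in control and 975 to 2460 in the knockout at week 8. S100a8, a subunit of calprotectin, read 7.83, 7.60, 7.21 and 5.63 in control at week 4 and 5.66, 4.87, 5.90 and 6.22 at week 8. On the knockout arrays it read 6.45, 7.98, 8.10 and 8.26 at week 4 and 9.23, 9.86, 10.23 and 10.30 at week 8. The genotypes overlapped at week 4 and not at week 8, and the growth was 3.61 ± 0.82 (adjusted p = 0.00552). Its partner S100a9 grew by 3.23 ± 0.68. Without knockout week 8 replicate 4 the list's count was 5.

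Of 19 chemokine genes 5 became higher and none lower, all 5 by a rise in the knockout. Ccl4, which draws monocytes and T cells, read 6.98 to 8.74 in the knockout at week 4 and 9.46 to 10.89 at week 8, a growth of 2.11 ± 0.48. Ccl5 grew by 1.88 ± 0.32 and Ccl3 by 1.61 ± 0.35, the latter not called after renewed quantile normalization or with a replicate block. Of 13 T and NK cell markers 2 became higher, Cd8b1 by 1.79 ± 0.32 and the NK receptor gene Klrd1 by 1.96 ± 0.42. The summed intensity of the 13 markers was 504 to 608 in control and 697 to 988 in the knockout at week 4. At week 8 it was 341 to 434 in control and 676 to 1140 in the knockout, whose arrays overlapped with those of week 4. Interferon response genes were already high in the knockout at week 4, with 28 of 36 measured, and 28 were higher at week 8. In 6 of them it became higher still, with a median growth of 0.27, or 0.15 without knockout week 8 replicate 1. Oas1g, an antiviral oligoadenylate synthetase, read 9.88 to 10.34 in the knockout at week 4 and 10.90 to 11.43 at week 8, a growth of 1.30 ± 0.32. The growth of Oasl2, a related gene, was 1.02 ± 0.27 on 1 probe and 0.67 on the other (adjusted p = 0.329), and the first was not called with a replicate block. MHC class II genes rose in both genotypes, 4 of 8 in control and 6 of 8 in the knockout, and no growth was called among them.

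Stellate cell and matrix genes combined both routes. Of 30 measured, 11 fell in control and 7 rose in the knockout, and the effect became higher in 16 and lower in none, with a median growth of 1.16. Mmp2, a gelatinase, read 7.93, 7.85, 8.57 and 8.58 in control at week 4 and 6.43, 6.44, 6.22 and 6.01 at week 8. The knockout arrays read 9.11, 8.97, 9.05 and 9.16, then 9.75, 9.51, 9.84 and 9.37. Control fell by 1.96, the knockout changed by 0.55 (adjusted p = 0.0575), and the growth was 2.50 ± 0.26 (adjusted p = 3.38e-07). Sparc, a collagen-binding matrix protein, fell by 1.86 in control and changed by -0.33 in the knockout. Lum, a proteoglycan of collagen fibrils, fell by 0.89 in control and rose by 1.14 in the knockout, a growth of 2.03 ± 0.31. Of 18 biliary and progenitor markers 5 became higher, among them Anxa2, a calcium-dependent membrane protein, by 1.65 ± 0.25. The summed intensity of the 18 markers was 7990 to 8510 in control and already 21900 to 32400 in the knockout at week 4. At week 8 it was 6560 to 7060 in control and 32700 to 39400 in the knockout.

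Some genes of hepatocyte function fell in the knockout with age, and most members of each list were not called. Of 45 measured P450 genes, 11 fell and 2 rose in the knockout, and 8 rose and 9 fell in control. The effect became lower in 15 and higher in 3, with a median growth of -0.46, or -0.28 with no filter on dim probes. The 3 were Cyp2b9, Cyp2b13 and the oxysterol hydroxylase Cyp39a1, at 1.24, the last not called without knockout week 8 replicate 4 (adjusted p = 0.0629). A second probe of Cyp39a1 gave -0.12 (adjusted p = 0.903). Cyp2c29, an epoxygenase, read 10.44, 10.30, 10.84 and 10.08 in control at week 4 and 10.60, 10.07, 10.37 and 10.66 at week 8. Knockout liver read 7.73, 7.96, 9.12 and 8.13 at week 4 and 5.53, 5.64, 5.24 and 7.32 at week 8. The control groups overlapped, and the knockout fell by 2.30, a growth of -2.31 ± 0.49 (adjusted p = 0.00324), not called on the square root scale.

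Of 14 sulfotransferase and glucuronosyltransferase genes, 6 fell in the knockout, 4 rose and 1 fell in control, and the effect became lower in 6 (median -0.66, or -0.36 with no filter on dim probes). Sult2a8, a bile acid sulfotransferase, read 11.73, 11.93, 11.16 and 11.41 in control at week 4 and 12.46, 12.45, 12.63 and 12.32 at week 8. Its knockout signal was 7.66, 7.71, 9.56 and 7.42, then 4.00, 5.41, 5.43 and 6.32. The knockout lay below control at both ages and fell further by 2.80, a growth of -3.71 ± 0.54 (adjusted p = 7.02e-05). Ugt2b1, a glucuronosyltransferase, and Ces3b, a carboxylesterase outside the list, rose by 1.24 and 1.58 in control and fell by 1.39 and 1.43 in the knockout. Dio1, a deiodinase of thyroid hormone, read 10.14 to 10.79 in control at week 4 and 10.47 to 11.06 at week 8, and in the knockout 9.34 to 10.40 and 5.33 to 8.09, a growth of -3.15 ± 0.63.

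Among 40 plasma protein and amino acid genes the effect became lower in 6 and higher in none (median -0.25, or -0.09 without knockout week 8 replicate 3), and 9 fell in the knockout. Alb, albumin, fell in both genotypes, by 0.75 in control and by 2.76 in the knockout. This rests on 1 probe, with no other probe past the filter to compare. It read 9.58 to 9.97 in the knockout at week 4 and 6.77 to 7.33 at week 8, and 10.53 to 10.83 and 9.88 to 9.99 in control. The growth was -2.01 ± 0.23 (adjusted p = 2.06e-06). Otc, ornithine transcarbamylase of the urea cycle, had a growth of -1.64 ± 0.31 on 1 probe and -0.77 on the other (adjusted p = 0.301). Bile acid genes became lower in 5 of 22 and higher in 1, and in 8 and 0 without knockout week 8 replicate 4. The marker sums of macrophages, neutrophils, matrix and biliary cells given above were highest in the knockout at week 8, and their part in these losses was not tested.

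With all arrays kept, the lists given next had no called growths or called growths in both directions. Over all genes tested 8.94% were called. No growth was called among 19 clock genes. One was higher and 1 lower among 23 germline genes, of which 18 were higher in the knockout at week 4 and 18 at week 8. Of 24 endothelial markers 7 fell and none rose in the knockout and 3 fell in control. Over all genes 4.02% fell in the knockout and 4.79% in control. The effect of the endothelial markers became higher in 2 and lower in 2, or lower in 4 without knockout week 8 replicate 4. Their summed intensity was 14500 to 17400 in control and 13800 to 16500 in the knockout at week 4. At week 8 it was 10900 to 12400 in control and 9340 to 11900 in the knockout. Of 11 erythroid markers 1 became higher and 1 lower, the latter Alas2, the erythroid enzyme of heme synthesis, which rose by 1.59 in control and had a growth of -2.09 ± 0.26. Xist had a growth of -1.02 ± 0.44 (adjusted p = 0.167), and of -1.38 (adjusted p = 0.0277) without knockout week 8 replicate 4, and its other probe gave 0.10.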

How the data were processed

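The deposited series table holds linear intensity for 25697 probes, background-subtracted and normalized by the authors in GenomeStudio 2011, per the submitters' processing notes, with 27.8% of values below 0 and column medians of 13.3 to 13.6. A non-normalized table has 48 columns whose names match no sample, and they were not used. Values were set to at least 0 and analysed as log2(intensity + 16), which understates the change of weak genes. A probe was above background over an intensity of 16.3, the noise SD of 7.03 (from the negative values) times the normal quantile of a one-sided p of 0.01. Probes above it on at least 4 of 24 arrays were kept (14536), and the brightest probe stood for its gene (10733 genes). Older symbols were updated through RefSeq.

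The 24 arrays were fitted together with 1 mean for each of 6 groups in limma 3.58.1 (R 4.3.3, lmFit and eBayes with trend), with two-sided tests, Benjamini-Hochberg adjustment over all genes and no covariate, since the labels give no batch. The step was tested on simulated data. An "at least" fold is the geometric mean intensity of a group above background divided by that threshold, given only if the other group had no array above it. Precision is limited by 4 arrays a group.

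The 43 gene lists and all members were chosen with earlier results of these data known, so list counts are descriptions. Genes were named by rule: the 8 largest called growths in each direction that appeared or grew, the 5 largest that turned sign or shrank, the 8 largest of each route, the 4 members of lowest p of each list, and a few fixed genes. Not all of them are given, and exceptions are stated. Alternatives were other arrays, offsets, scales, filters, probe rules, weights, blocks and leaving out each array. The largest correlation between 2 arrays was 0.989, and no array was a copy of another. One item is not reported here.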

Additional observations from a re-analysis of the deposited data

Results flagged for a closer look

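The knockout effect differed between the ages, by the test of the difference itself, in 598 genes toward higher and in 361 toward lower. Among 84 of the described genes, 30 of 310 tested sets of 4 arrays held 1 array far from the other 3. Chance alone gives about 1 in 20. No explanation was weighed.

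Control week 4 replicate 4 gave 7 of the 30. It was high for Grb10 at 9.08 and low for Cyp7b1 at 8.73, Mup4 at 5.80, Mup2 at 11.53, Mup6 at 10.24, Nqo1 at 6.65 and Ces3b at 10.03, all as log2(intensity + 16). Knockout week 4 replicate 4 gave 4, low for Vldlr at 6.84 and Ly6c1 at 6.66 and high for Sult2a8 at 9.56 and Ces3b at 10.85. Knockout week 8 replicate 4 gave 4, high for Cyp2b9 at 11.09 and Xist at 7.20 and low for Ddx3y at 7.41 and Eif2s3y at 4.00.

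The others were spread over the arrays. Control week 4 replicate 5 was low for Birc5 at 7.02, C1qa at 8.70 and Otc at 8.22. Knockout week 4 replicate 1 was low for Pbk at 7.68, Mcm5 at 8.49 and S100a8 at 6.45. Knockout week 8 replicate 1 was high for Igf2bp3 at 9.08, Tkt at 12.07 and Ccl4 at 10.89, and replicate 2 of that group for Spink1 at 12.08. Control week 8 replicate 3 was low for Akr1b8 at 5.30 and high for Lum at 7.40, and replicate 5 was low for Nat8 at 9.74. Among the control arrays of week 4, replicate 1 was high for Kdm5d at 6.36 and replicate 3 for Dct at 6.09.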

How the results depend on the processing

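Of 84 described genes 79 passed the threshold, 70 of them under each of the 28 other settings, and none reversed. The share of calls toward higher was 58.4 to 67.2% over the settings, against 62.4%. With the replicate number as a block (replicate block), 282 growths were called higher and 148 lower, 207 effects appeared, 164 grew and 33 shrank or were lost. Whether the numbers pair the arrays cannot be told. Same-numbered arrays had correlations of deviations of -0.12 to 0.04, which speak only of deviations shared over all genes. This fit gives no value for changes with age or routes, because each block lies within 1 week. With array weights, 1517 control changes, 136 shrunken effects, 521 genes of control alone, 106 opposite and 17 unequal were called. Unequal changes numbered 7 at log2(intensity + 4) and 4 after renewed quantile normalization. Divided by the share of the control change, 220 genes were control, 240 knockout and 499 between, with no value for unequal changes. List medians were not computed on the square root scale.

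Leaving out each array in turn gave 446 to 605 growths higher and 254 to 389 lower, 2367 to 3075 effects at week 4 and 4627 to 5250 at week 8, 570 to 936 control changes and 585 to 1146 knockout changes. Effects that appeared numbered 350 to 499, grew 257 to 409, shrank 45 to 69 and turned sign 27 to 38. The routes numbered 213 to 331 for control, 239 to 461 for knockout, 41 to 74 opposite and 9 to 14 unequal. The lowest counts of control changes and of the control route came without control week 4 replicate 4, those of knockout changes, of the knockout route and of opposite changes without knockout week 4 replicate 4. For groups at background only bounds can be given.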
